A study of Mus musculus with 22 samples.

Results

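Expression of 10 genes that control mitochondrial biogenesis was followed in the mouse spinal cord during aging and in a model of amyotrophic lateral sclerosis (ALS). They are the coactivators Ppargc1a and Ppargc1b (PGC-1α and PGC-1β), the forkhead transcription factors Foxo1, Foxo3, Foxo4 and Foxo6, and the mitochondrial regulators Esrra, Nrf1, Gabpa and Tfam. The genes were chosen by name, and each was found by its Ensembl identifier among the 21995 genes of the deposited table. All 10 passed the filter on low counts in both comparisons.

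Each library is the RNA of the whole spinal cord of 1 mouse, and all mice are labelled as strain C57BL/6. Aging was examined in 8 young (3–4 months) and 8 old (18–24 months) wild-type males, whose libraries were made with the Roche RNA KAPA Hyperprep kit. ALS was examined in 3 mice labelled G93a, symptomatic carriers of a high-copy human SOD1 transgene with an ALS mutation, and in 3 wild-type controls labelled WT_G93a_Control. These mice were 5–6 months old by their labels, both groups held females and males, sex was not given per library, and the Illumina TruSeq kit was used, so kit and experiment coincide and levels are not compared between them. A whole cord pools motor neurons, other neurons and glia, so fewer cells of a type and less RNA per cell cannot be told apart.

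PGC-1α and PGC-1β do not bind DNA themselves. They are recruited by nuclear receptors and by the nuclear respiratory factors to genes of oxidative phosphorylation, and through Tfam they act on the mitochondrial genome. FOXO proteins are held in the cytoplasm by insulin and AKT signaling, and in the nucleus they switch on genes of stress resistance, cell cycle arrest, autophagy and apoptosis. Both families are deacetylated by SIRT1, the enzyme at the center of the study from which these libraries come, and motor neurons are regarded as sensitive to mitochondrial failure because of their long axons.

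The libraries held 5078092 to 9358055 counts in young mice, 5664869 to 9145600 in old mice, 10693060 to 13219797 in controls and 9675610 to 11872431 in G93a mice. Levels are given below as CPM, which are counts scaled to library sizes adjusted by the trimmed mean of M values (TMM), and a change is called where edgeR's quasi-likelihood test gave an adjusted p under 0.05 over all genes tested. The reads of mouse Sod1 were at 156 to 168 CPM in controls and 296 to 335 CPM in G93a mice, so no library went against its label, although reads of the human transgene that align to the mouse gene cannot be separated from it. Cell type markers moved with both comparisons. Of 13 microglia and macrophage markers 12 were higher in old mice and 11 in G93a mice, and they summed to 304–333 CPM in young against 574–1011 in old mice and to 319–384 CPM in controls against 1465–3096 in G93a mice. Of 12 neuron markers 6 were lower and 1 was higher in old mice (8605–9983 against 7124–9762 CPM), and 10 were lower in G93a mice (10172–10788 against 3953–6572 CPM). None of these markers was at 0 in all libraries, whereas the skeletal muscle markers summed to at most 6.59 CPM in any library and Myh4 was at 0 in every ALS library. The G93a library d4437 lay nearest to the controls on both the microglia and the neuron markers. Of the old libraries, d149034 was the lowest on the microglia markers and the highest on the neuron markers. Among all aging libraries d149034 also had the largest share of counts in its top 10 genes (15.1%), the fewest genes with a count (15716) and the lowest TMM factor (0.92). Values without d4437 or d149034 are given below where leaving them out changed the call of a regulator or moved the count of a pathway list by over 1.5 times. Of all genes tested, 45.6% were called in ALS without d4437 and 31.9% in aging without d149034, and with the correction for length and GC content described below 34.9% in ALS and 20.5% in aging, beside 33.9% and 26.4% with all libraries uncorrected.

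Of the 10 regulators, 1 was called in old against young mice, where 26.4% of the 13647 genes tested were called, and it was Gabpa, which was lower. In G93a against control mice 3 were called, where 33.9% of 14386 genes were called. Ppargc1a and Esrra were lower, where 15.5% of genes were lower, and Foxo1 was higher, where 18.4% were higher. The change differed between ALS and aging for 4 regulators, Foxo1, Esrra, Tfam and Gabpa, by an interaction test that called 25.8% of 14502 genes. With 10 genes, these counts lie below, near and above the shares of all genes called, and none is read as a property of the group. With all libraries, none of the 10 was called with a log2 fold change beyond 1, a size passed by 2.22% of genes in aging, 9.7% in ALS and 4.81% for the difference. An unadjusted p under 0.05 was found for 3 regulators in aging (37.6% of all genes), 5 in ALS (45.1%) and 4 for the difference (37.1%). Libraries of the compared groups did not overlap for 0 of the 10 in aging (5.33% of all genes) and for 3 in ALS, Ppargc1a, Esrra and Gabpa (50.4%). The median log2 fold change of the 10 was -0.05 in aging and -0.17 in ALS, beside -0.003 and 0.003 over all genes tested.

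**Figure D1:**
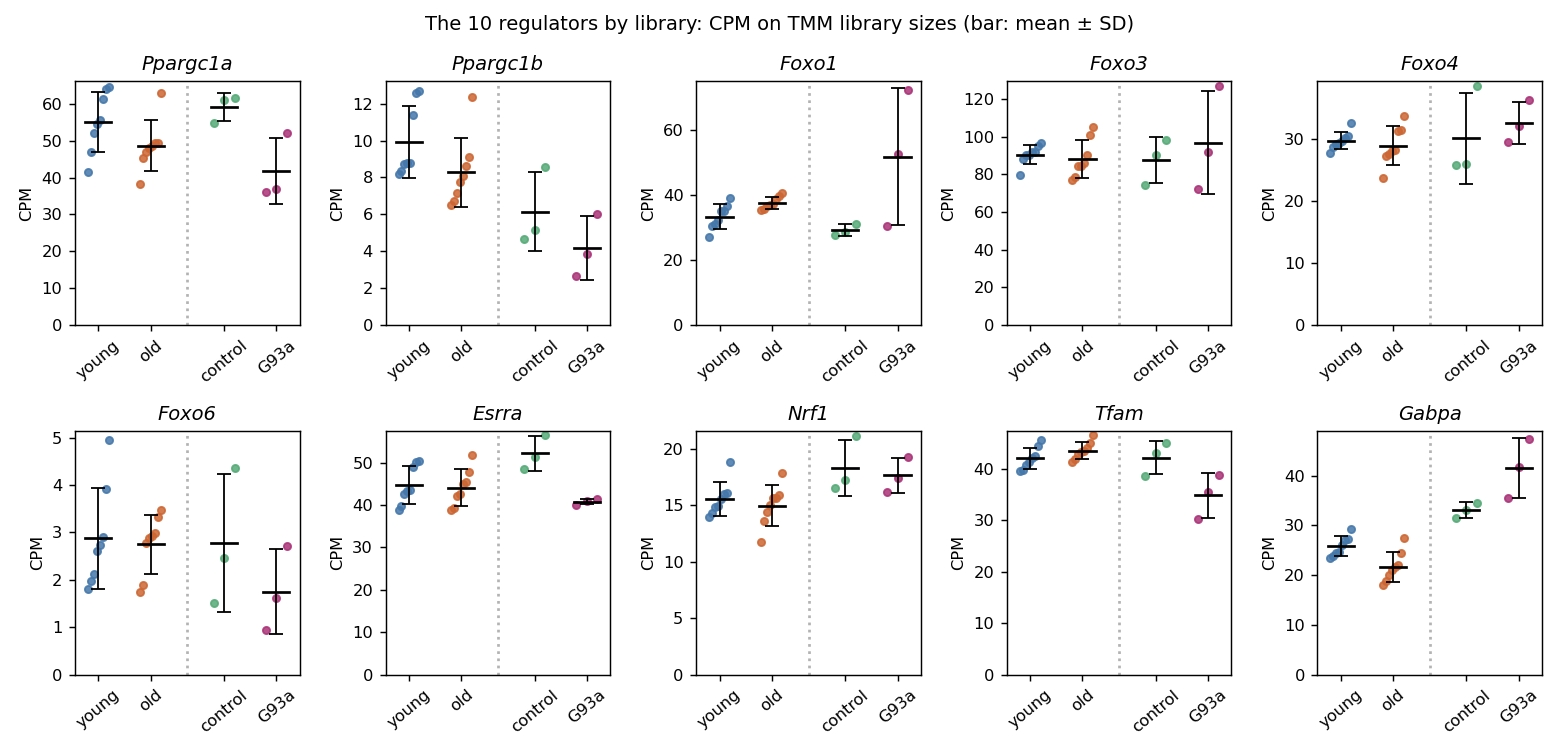
CPM (vertical axis, from 0) of each of the 10 regulators in every library of the young, old, control and G93a groups, where points are libraries, the bar is the mean and the whisker 1 SD. Ppargc1a and Esrra of all 3 G93a libraries sit below the 3 controls, Gabpa sits above them, and young and old points overlap in every panel.

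Compared per length, as the log2(FPKM + 1) that the authors deposited, the 10 regulators spanned much of the range of the tested genes. In young mice Tfam was highest at a median of 4.43, above 70.5% of the tested genes, followed by Esrra at 4.37. Foxo3 at 3.75, Gabpa at 3.49, Foxo4 at 3.38 and Ppargc1a at 3.32 formed a middle group. Nrf1 at 2.72, Foxo1 at 2.21 and Ppargc1b at 1.85 were lower, and Foxo6 at 0.98 was above only 6.16% of tested genes. Neighbours in this order overlapped in their ranges except at 4 steps, from Esrra to Foxo3, from Ppargc1a to Nrf1, from Nrf1 to Foxo1 and from Ppargc1b to Foxo6. Tfam and Esrra also held the first 2 places in the other 3 groups. The per-length value of Gabpa spread widely in young mice, from 2.84 to 3.74, while its CPM spread only from 23.5 to 29.3.

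The promoter sequences of the regulators called in any of the 3 tests are shown here, from the GRCm38.p6 table of RefSeq, which held 7 of the 10 genes (not Ppargc1b, Foxo4 or Foxo6). Each runs 5′ to 3′ on the strand of its gene, and capitals mark a GABP motif, CCGGAAG or its reverse complement CTTCCGG. For Tfam and Gabpa only the bases around the motif are printed.
Ppargc1a, chr5:51567727-51567975, minus strand: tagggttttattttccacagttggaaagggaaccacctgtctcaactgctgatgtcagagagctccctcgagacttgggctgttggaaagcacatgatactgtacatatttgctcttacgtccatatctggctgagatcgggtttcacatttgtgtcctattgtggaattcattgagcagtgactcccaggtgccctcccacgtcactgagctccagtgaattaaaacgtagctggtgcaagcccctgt
Foxo1, chr3:52268087-52268335, plus strand: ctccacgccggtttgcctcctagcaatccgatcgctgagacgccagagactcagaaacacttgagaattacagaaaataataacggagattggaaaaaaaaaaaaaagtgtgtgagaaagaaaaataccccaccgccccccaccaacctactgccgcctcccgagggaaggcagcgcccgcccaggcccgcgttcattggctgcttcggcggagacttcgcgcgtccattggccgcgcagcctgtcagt
Esrra, chr19:6921814-6922058, minus strand: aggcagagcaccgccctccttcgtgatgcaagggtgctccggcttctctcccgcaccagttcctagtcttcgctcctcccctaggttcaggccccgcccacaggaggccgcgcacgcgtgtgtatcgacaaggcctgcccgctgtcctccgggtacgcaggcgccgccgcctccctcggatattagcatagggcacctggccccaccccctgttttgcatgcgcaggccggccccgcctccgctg
Tfam, chr10:71238074-71238102, minus strand: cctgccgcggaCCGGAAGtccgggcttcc
Gabpa, chr16:84835020-84835048, plus strand: gagggtaagtgCTTCCGGgtccctcagct

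The GABP motif, searched on both strands, was in the 250 bases before the RefSeq start of Tfam, 47 to 41 bases from it, and of Gabpa, 93 to 87 bases from it. It is in 6.91% of the 32851 promoters of the table. Both sites lie inside the longer gene spans of GENCODE M21, and the Gabpa site also falls in the promoter window of Atp5j. The changes of Tfam and Gabpa, given below, were of opposite sign in both comparisons. With all libraries only the fall of Gabpa in aging was called, and whether the motif bears on either gene was not tested. The letters searched for NRF-1 (the palindrome of GCGCA followed by TGCGC, in 0.782% of promoters), ERR (AAGGTCA, 4.08%), FOXO (GTAAACA, 3.17%) and CRE (TGACGTCA, 1.55%) were not in these windows for any of the 7 genes. A match is a description of the letters only.

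The coactivator Ppargc1a (ENSMUSG00000029167, GRCm38 chromosome 5 from 51454250 to 51567726, minus strand) is the inducible master switch of mitochondrial biogenesis. In young mice its lowest, median and highest libraries were at 41.6, 55.1 and 64.6 CPM, and in old mice at 38.4, 48.4 and 63.1 CPM. The groups overlapped over most of their range, although 7 of 8 old libraries lay below the young median. The log2 fold change of -0.19 (standard error 0.09, edgeR adjusted p = 0.133) did not pass the test. The old library at 63.1 CPM was d149034, and without it the change was -0.25 (adjusted p = 0.0223, edgeR), while it was -0.24 (adjusted p = 0.0385, edgeR) without the lowest young library, d149019. With the correction for length and GC content given below it was -0.02 (adjusted p = 0.892, edgeR).

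In the ALS experiment Ppargc1a was at 61.7, 61.0 and 54.9 CPM in the controls and at 37.0, 52.1 and 36.1 CPM in G93a mice. Every G93a library was below every control, and d4437 was the closest to them. The log2 fold change was -0.51 (standard error 0.14, edgeR adjusted p = 0.0246), a fall of 29.6% with a 95% interval from -43.8% to -11.9%. With 1 library left out in turn it ranged from -0.41 to -0.69 and passed the test only when d4437 was left out. In the other 5 of these fits the edgeR adjusted p was between 0.0513 and 0.106.

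Ppargc1b (ENSMUSG00000033871) is the closest relative of Ppargc1a and shares many of its targets. It was at 8.20, 8.77 and 12.7 CPM in young mice and at 6.53, 7.91 and 12.3 CPM in old mice (lowest, median, highest). Although 5 of 8 old libraries were below all young ones, the change of -0.27 (standard error 0.14, adjusted p = 0.143, edgeR) did not pass, and d149034 was again the highest old library, without which it was -0.37 (adjusted p = 0.0222, edgeR). In ALS the controls were at 4.65, 8.59 and 5.15 CPM and the G93a mice at 2.63, 6.04 and 3.85 CPM. These groups overlapped, since 1 G93a library exceeded 2 of the controls, and the change was -0.57 (standard error 0.35, adjusted p = 0.241, edgeR). That library was d4437, and without it the change was -0.92 and was called (adjusted p = 0.0438, edgeR). At 31 to 102 counts per ALS library, the 95% interval with all libraries reached from -1.36 to 0.22, so a fall as large as that of Ppargc1a lies within it.

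Foxo1 (ENSMUSG00000044167, chromosome 3 from 52268336 to 52353221, plus strand) is the FOXO factor best known from insulin signaling and vascular growth. Its lowest, median and highest values were 26.98, 33.7 and 39.1 CPM in young mice and 35.3, 37.0 and 40.6 CPM in old mice. All 8 old libraries exceeded the young median, but the ranges overlapped. Its change of 0.17 on the log2 scale (standard error 0.06, 95% interval 0.03 to 0.30) missed the threshold, with an edgeR adjusted p of 0.0608. It was called without young d149018, at 0.20 (adjusted p = 0.0215, edgeR), and with the correction for length and GC content given below, at 0.31 (adjusted p = 0.00243, edgeR).

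In the edgeR fit with all libraries, Foxo1 showed the largest change of the 10 regulators in ALS. The controls were at 27.7, 28.5 and 31.1 CPM and the G93a mice at 72.3, 30.4 and 52.5 CPM. Both d4435 and d4443 were well above all controls, while d4437 lay among them. Its log2 fold change was 0.83 (standard error 0.26, 95% interval 0.25 to 1.41, edgeR adjusted p = 0.0346), and the SD in G93a mice was 20.9 CPM against 1.79 CPM in controls. Without d4435, the highest library, it was 0.52 (adjusted p = 0.0856, edgeR), and it passed the test in only 1 of the 6 fits with a library left out, that without d4437 (1.10, adjusted p = 0.000107, edgeR). Foxo1 shares 674 exon bases with Gm20402, an antisense gene that was not analysed here, and whether counting used the strand is not stated in the sources used here.

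**Figure D2:**
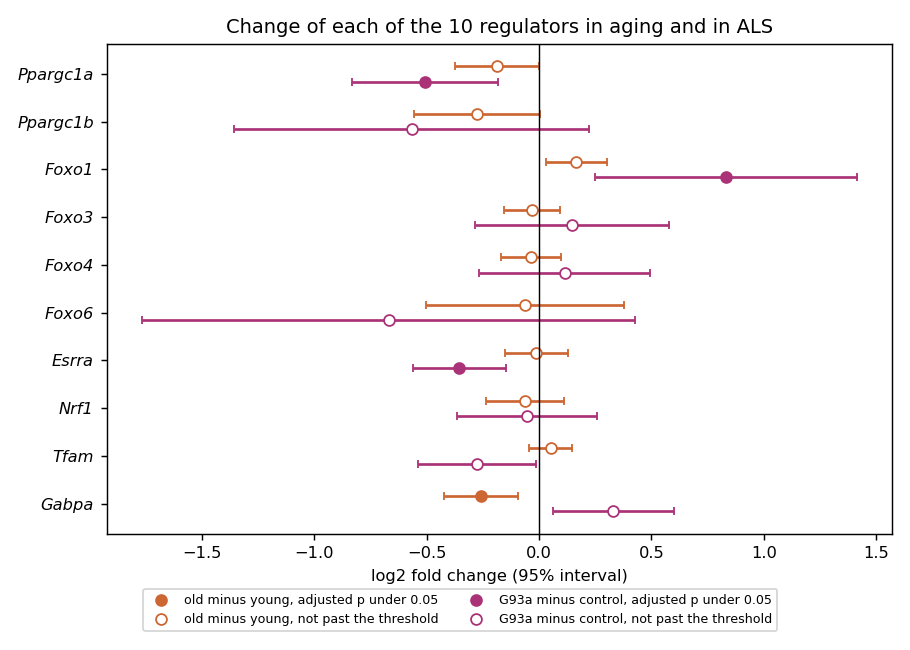
Log2 fold change (horizontal axis) of each regulator with its 95% interval, old minus young and G93a minus control, with filled points for an adjusted p under 0.05 and open points otherwise. Intervals are wider in ALS, and the filled points are Gabpa in aging and Ppargc1a, Foxo1 and Esrra in ALS. The points of Foxo3, Foxo4, Tfam and Gabpa lie on opposite sides of 0.

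The other FOXO genes passed the test in neither comparison. Foxo3 (chromosome 10 from 42181841 to 42276755), the family member tied to longevity and autophagy, was at 79.5, 91.1 and 96.8 CPM in young and 76.8, 85.4 and 105 CPM in old mice. Its change was -0.03 with a 95% interval from -0.16 to 0.09 (adjusted p = 0.756, edgeR), which is -10.2% to 6.76% as a percent change. In ALS it was at 74.3, 90.3 and 98.0 CPM in controls and 127, 72.4 and 91.6 CPM in G93a mice. The G93a libraries included both the highest and the lowest value, and the interval of the change was as wide as -0.28 to 0.58 (0.15, adjusted p = 0.584, edgeR).

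Foxo4, an X-linked member, was at 27.8, 29.5 and 32.5 CPM in young and 23.8, 28.2 and 33.8 CPM in old mice, a change of -0.03 (standard error 0.06, adjusted p = 0.737, edgeR). Its change in ALS was 0.11 (standard error 0.17, adjusted p = 0.631, edgeR), from 26.0, 25.8 and 38.6 CPM in controls to 36.3, 29.5 and 32.1 CPM in G93a mice. Foxo6, a mainly neuronal member, was low at 1.75 to 4.94 CPM in the aging libraries. It had 11 to 46 counts per library in the ALS experiment, and its change there of -0.67 had a standard error of 0.48 (adjusted p = 0.317, edgeR). The 95% intervals, from -0.50 to 0.38 in aging and from -1.76 to 0.43 in ALS, leave room for changes in either direction, and without d4437 the ALS change was -1.11 (adjusted p = 0.101, edgeR).

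Esrra (ENSMUSG00000024955, chromosome 19 from 6910977 to 6921813, minus strand) encodes ERRα, the orphan nuclear receptor through which PGC-1α acts on many respiratory genes. Its lowest, median and highest values of 38.8, 43.5 and 50.3 CPM in young mice were close to those of old mice at 38.9, 43.7 and 51.8 CPM. The change was -0.01 with a 95% interval from -0.15 to 0.13 (adjusted p = 0.927, edgeR). In ALS the controls were at 51.4, 48.4 and 56.6 CPM and the G93a mice at 41.4, 40.1 and 40.9 CPM. The 3 G93a libraries agreed closely, d4437 included, and all were below the controls. The change was -0.35 on the log2 scale (standard error 0.09, edgeR adjusted p = 0.0171), a fall of 21.8%. Leaving out 1 library gave values from -0.41 to -0.29, and the call was lost without the control d4444 (-0.29, adjusted p = 0.0651, edgeR) or without G93a d4443 (-0.35, adjusted p = 0.0689, edgeR).

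Nrf1 (chromosome 6 from 30047988 to 30153458), nuclear respiratory factor 1, passed the test in neither comparison, and its groups overlapped in both. It was at 14.0, 15.3 and 18.8 CPM in young and 11.7, 15.3 and 17.8 CPM in old mice. In ALS it was at 16.5, 17.3 and 21.1 CPM in controls and 17.5, 16.2 and 19.2 CPM in G93a mice. The changes were -0.06 (95% interval -0.23 to 0.11, adjusted p = 0.635, edgeR) and -0.05 (95% interval -0.37 to 0.26, adjusted p = 0.788, edgeR).

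Gabpa (ENSMUSG00000008976, chromosome 16 from 84834925 to 84863779, plus strand) encodes the DNA-binding subunit of GABP, also called NRF-2, an ETS factor that drives subunits of cytochrome oxidase. It was at 23.5, 25.4 and 29.3 CPM in young mice and at 18.1, 21.3 and 27.5 CPM in old mice (lowest, median, highest). In all, 6 of the 8 old libraries lay below every young one, and d149034 was again the highest. This fall of 0.26 on the log2 scale (standard error 0.08, edgeR adjusted p = 0.0182), or 16.4%, was the only change of the 10 past the threshold in aging. Its call held with each of the 16 libraries left out, but not with the correction for length and GC content given below. The call was also lost with limma on log2(FPKM + 1) (-0.11, adjusted p = 0.658, limma) and on log2(FPKM + 0.1) (-0.13, adjusted p = 0.654, limma).

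In ALS Gabpa went the other way, with controls at 31.5, 34.6 and 33.1 CPM and G93a mice at 47.5, 35.5 and 41.8 CPM. Every G93a library was above every control, d4437 only narrowly. A log2 fold change of 0.33 (standard error 0.12, 95% interval 0.06 to 0.60) had an edgeR adjusted p of 0.0586, just short of the threshold. Without d4437 it was 0.44 and was called (adjusted p = 0.0058, edgeR). Gabpa shares 397 exon bases with Atp5j, an ATP synthase subunit on the opposite strand, whose own changes were 0.03 in aging (adjusted p = 0.713, edgeR) and -0.11 in ALS (adjusted p = 0.326, edgeR). Esrra likewise shares 73 exon bases with Trmt112, which changed by 0.15 (adjusted p = 0.228, edgeR) and 0.32 (adjusted p = 0.203, edgeR). These neighbours thus did not pass the test in either comparison.

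Tfam (ENSMUSG00000003923, chromosome 10 from 71225464 to 71238280, minus strand) packages mitochondrial DNA and starts its transcription. In young mice its lowest, median and highest values were 39.6, 41.7 and 45.6 CPM and in old mice 41.3, 43.3 and 46.6 CPM. The change was 0.05 with the narrowest 95% interval of the 10 genes, -0.04 to 0.15 (adjusted p = 0.432, edgeR). In ALS the controls were at 43.0, 44.96 and 38.6 CPM and the G93a mice at 30.3, 38.8 and 35.5 CPM. Only d4437 reached the range of the controls. Its log2 fold change of -0.28 (standard error 0.12, 95% interval -0.54 to -0.01) had an edgeR adjusted p of 0.0951, and without d4437 it was -0.36 (adjusted p = 0.0268, edgeR).

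The difference between the 2 changes, G93a minus control less old minus young, was tested in 1 edgeR fit of all 22 libraries. Among the 4 genes called it was largest for Foxo1 at 0.64 (standard error 0.20, adjusted p = 0.0218, edgeR) and Gabpa at 0.56 (standard error 0.14, adjusted p = 0.00468, edgeR), both higher in ALS relative to aging. Tfam at -0.36 (standard error 0.10, adjusted p = 0.00882, edgeR) and Esrra at -0.37 (standard error 0.12, adjusted p = 0.0282, edgeR) were lower. Of these 4, Gabpa and Tfam had changes of opposite sign in the 2 comparisons, Foxo1 had the larger positive change in ALS, and Esrra fell in ALS while its change in aging was near 0. For Ppargc1a the difference of -0.35 did not pass (standard error 0.18, adjusted p = 0.156, edgeR), so its call in ALS and not in aging does not show a difference between them, although without d4437 it was -0.55 and was called (adjusted p = 0.0175, edgeR). The remaining 5 genes, Foxo6 at -0.63 (standard error 0.47) among them, had adjusted p-values from 0.351 to 0.935 (edgeR). Only Gabpa passed in each of the 6 fits with a control or G93a library left out. Without d4435 the other 3 did not pass, and Foxo1 then differed by 0.33 (adjusted p = 0.212, edgeR).

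Sirt1, the deacetylase of PGC-1α and FOXO proteins, passed the test in neither comparison. It was at 11.5, 13.6 and 19.8 CPM in young and 9.86, 13.2 and 16.4 CPM in old mice (log2 fold change -0.12, adjusted p = 0.484, edgeR). In controls it was at 13.3, 22.4 and 19.7 CPM and in G93a mice at 20.5, 18.0 and 24.4 CPM (0.18, adjusted p = 0.512, edgeR). These groups overlapped in both comparisons.

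The libraries differed in how strongly long transcripts were represented. An index of this, the median log2 CPM of genes above the upper quartile of transcript length minus that of genes below the lower quartile, relative to the mean library of the experiment, was -0.01 to 0.19 in young and -0.23 to 0.02 in old mice, with d149034 at 0.02 the highest old library. Over the 16 aging libraries, with group means removed, Ppargc1a followed it with a Pearson r of 0.86 and a Spearman rho of 0.87, Ppargc1b with 0.65 and 0.69, and Gabpa with 0.53 and 0.44. Esrra ran against it at -0.69 and -0.69, as did Foxo4 at -0.60 and -0.29, and Foxo1 gave -0.06 and -0.08. The Pearson r of the other 4 lay between -0.34 (Nrf1) and 0.32 (Foxo6). An index of GC content built in the same way, GC-rich minus GC-poor genes, gave a Pearson r of 0.75 for Esrra, 0.63 for Foxo4, -0.74 for Ppargc1a, -0.64 for Gabpa and -0.52 for Ppargc1b, with Spearman rho of 0.69, 0.29, -0.54, -0.56 and -0.39, and between -0.19 and 0.36 for the other 5. These are descriptions over libraries that share dissection and kit. Counts were then corrected for length and GC content, a step added after seeing the data. The aging change of Gabpa was then -0.13 (adjusted p = 0.193, edgeR) and its call was lost, while Foxo1 was called, as given above. Each library was corrected against the mean of both groups, and the index differed between young and old mice. The correction thus takes out any group shift shared by genes of like length or GC content, and technical and biological shifts cannot be told apart. The index also separated the ALS groups, at 0.04 to 0.17 in controls and -0.20 to -0.02 in G93a mice, but there the correction kept all 3 calls, with Ppargc1a at -0.36, Esrra at -0.44 and Foxo1 at 0.996, and added Gabpa at 0.45 (adjusted p = 0.0296, edgeR).

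**Figure D3:**
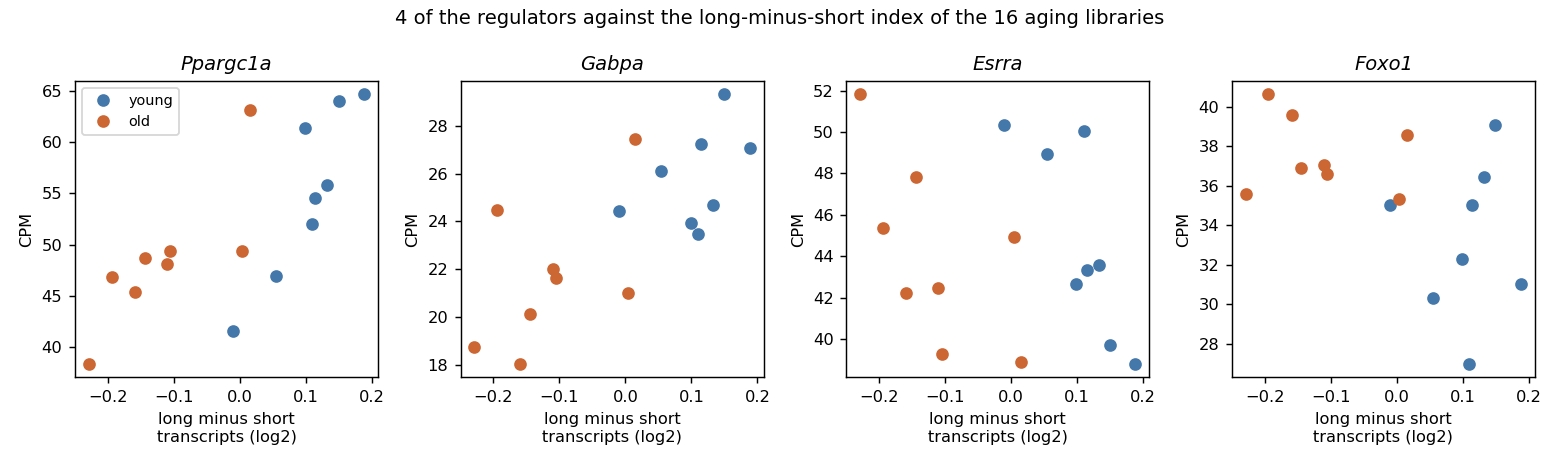
CPM of Ppargc1a, Gabpa, Esrra and Foxo1 (vertical axes, not starting at 0) against the long-minus-short index (horizontal axis, log2) in the 8 young and 8 old libraries. Points of Ppargc1a rise with the index within both groups, points of Esrra fall, and the old libraries, at -0.23 to 0.02, lie to the left of all young ones but 1.

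With the group means removed, the 10 regulators did not vary as a block over the 16 aging libraries. The median r over their 45 pairs was -0.05, with 3 pairs above 0.5 and 5 below -0.5. The 3 were the pairs among Ppargc1a, Ppargc1b and Gabpa, at 0.66, 0.61 and 0.63, and the most negative was Ppargc1a with Esrra, its partner, at -0.84 (rho -0.83). These genes are among those that followed the length index or ran against it. Among all genes tested, those most like Ppargc1a were Sos1 (r = 0.91), Robo1 (0.88) and Dnm3 (0.88). Those most like Foxo1 were Gapdh (0.82), Vps72 (0.80) and Smpd4 (0.80), and those most like Foxo3 were Edc4 (0.82), Mfhas1 (0.81) and Txnrd1 (0.81). Those most like Tfam were Ppa2 (0.78), Pipox (0.78) and Adam19 (0.77), each over 16 libraries. Their Spearman rho ran from 0.66 (Dnm3) to 0.81 (Robo1). As the largest r among 13647 tested genes they are high by selection, and whether they exceed chance was not tested.

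The G93a mice differed from each other in the cell markers, and several regulators followed the same order. The microglia and macrophage markers summed to 3096 CPM in d4435, 2424 in d4443 and 1465 in d4437, and the neuron markers to 3953, 4456 and 6572 CPM. Foxo1, Gabpa, Foxo3 and Foxo4 were highest in d4435 and lowest in d4437, in the order of the microglia markers. Tfam, Ppargc1b and Foxo6 were in the opposite order. Ppargc1a was highest in d4437, whereas Esrra was nearly equal in all 3. Nrf1 was lowest in d4437 but highest in d4443. With 3 libraries such orders arise easily by chance, and the share of all genes in them was not counted. Astrocyte markers summed to 5985–6470 CPM in controls and 11590–18259 in G93a mice, with 6 of 8 called higher (18.4% of all genes). Motor neuron markers summed to 288–323 and 142–156 CPM, with 6 of 9 called lower (15.5% of all genes). The part of these marker shifts in the changes of the regulators was not tested.

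**Figure D4:**
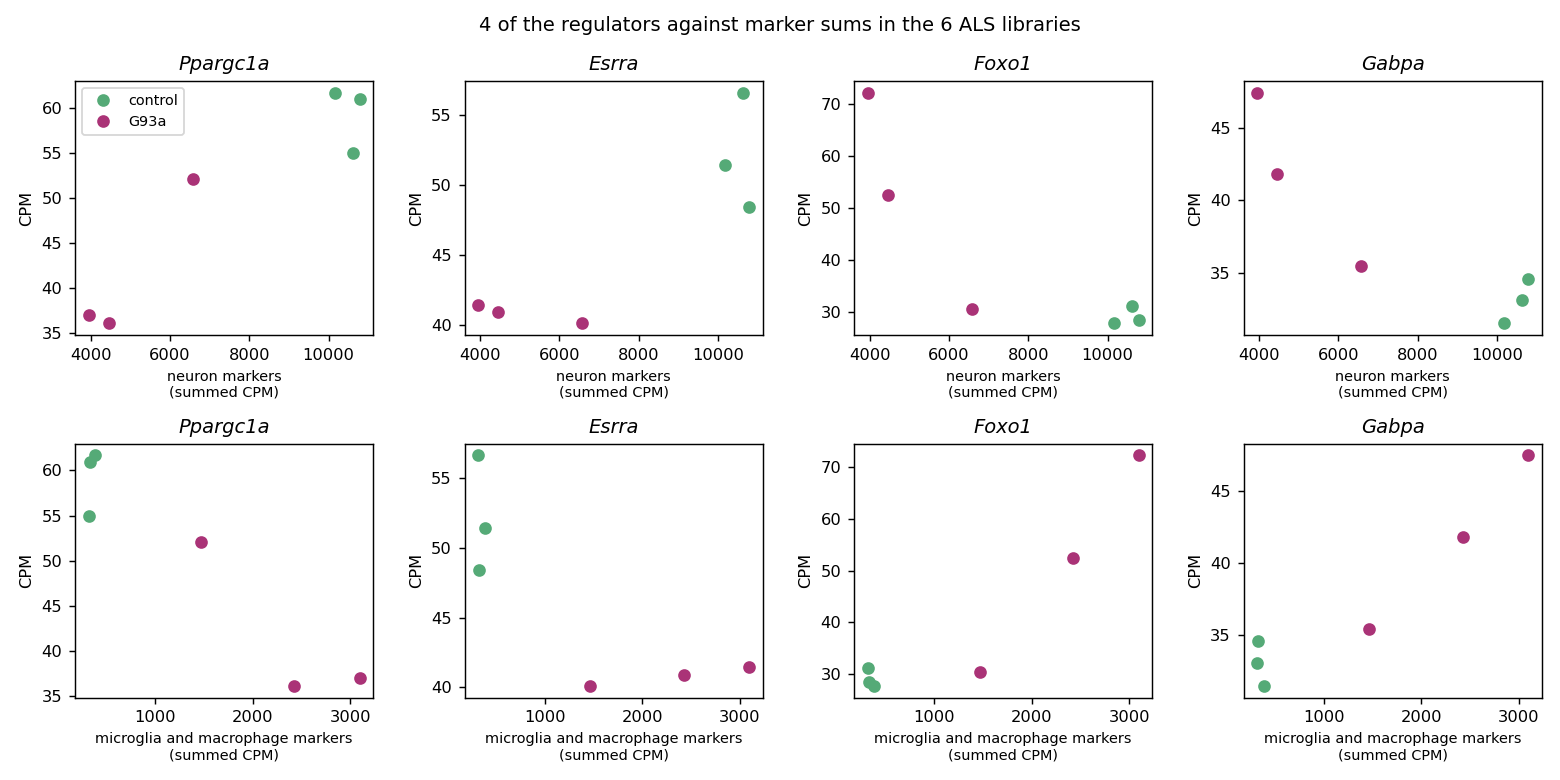
CPM of Ppargc1a, Esrra, Foxo1 and Gabpa (vertical axes, not starting at 0) against the summed CPM of neuron markers (top) and of microglia and macrophage markers (bottom) in the 3 control and 3 G93a libraries. The G93a library at 6572 CPM of neuron markers and 1465 CPM of microglia markers lies nearest to the controls for Ppargc1a, Foxo1 and Gabpa but not for Esrra.

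Among 13 relatives of PGC-1 and its nuclear receptor partners, 2 were lower in G93a mice (15.4%, beside 33.9% of all genes tested called in either direction). These were the other members of the ERR family, Esrrg, from 79.5–90.8 to 27.9–58.7 CPM (log2 fold change -1.09, adjusted p = 0.00986, edgeR), and Esrrb, from 8.76–11.01 to 3.47–7.86 CPM (-1.002, adjusted p = 0.0283, edgeR). In old mice only Thra, a thyroid hormone receptor, was called, at 0.12, and with correction for length and GC content none was (20.5% of all genes), while without d149034 there were 1 higher and 1 lower (31.9%). The same correction gave 1 higher and 3 lower in ALS (34.9%). Of 23 genes that transcribe or maintain mitochondrial DNA beside Tfam, 1 was called in ALS, Lrpprc, which stabilizes mitochondrial mRNA, from 91.3–102 to 55.8–78.3 CPM (-0.57, adjusted p = 0.0116, edgeR). Lrpprc was also lower in old mice, from 74.9996–86.5 to 60.3–74.98 CPM (-0.26, adjusted p = 0.000608, edgeR), with Mterf4 at -0.30 and Tk2 higher at 0.34. These shares of the list called, 4.35% in ALS and 13.0% in aging, lie below the 33.9% and 26.4% of all genes, and without d4437 (45.6% of all genes) the ALS count was 2 higher and 2 lower.

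The nuclear-encoded targets of PGC-1, ERR and NRF-1 were mostly lower where called in ALS and mostly higher where called in aging. Of 40 such genes 2 were higher and 17 lower in G93a mice, with a median of -0.24 beside 0.003 for all genes. In all 47.5% of the list was called in ALS and 35.0% in aging, beside 33.9% and 26.4% of all genes, and without d4437 (45.6% of all genes) the ALS count was 2 higher and 22 lower. The lower ones included Ndufa9 at -0.41 and Ndufs1 at -0.51, subunits of complex I, and the neurofilament gene Nefh at -1.52, which is also among the neuron markers. Ucp2, an uncoupling protein that macrophages express, was higher, from 43.7–54.2 to 87.2–331 CPM (2.06, adjusted p = 0.00565, edgeR). In old mice 12 were higher and 2 lower, with a median of 0.07. They included Ucp2 at 0.61, Pvalb, a calcium buffer, at 0.41, and Cox6a1, a subunit of cytochrome oxidase, at 0.25, and the lower ones were Nefh at -0.47 and Tomm70a, an import receptor, at -0.17. The difference between the comparisons was called for 26 of the 40, 25 of them lower in ALS relative to aging, where 14.2% of all genes tested were. With correction for length and GC content the ALS count was 1 higher and 26 lower (34.9% of all genes called), the aging count 4 higher and 4 lower (20.5%), and the difference 1 higher and 26 lower (28.1%).

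**Figure D5:**
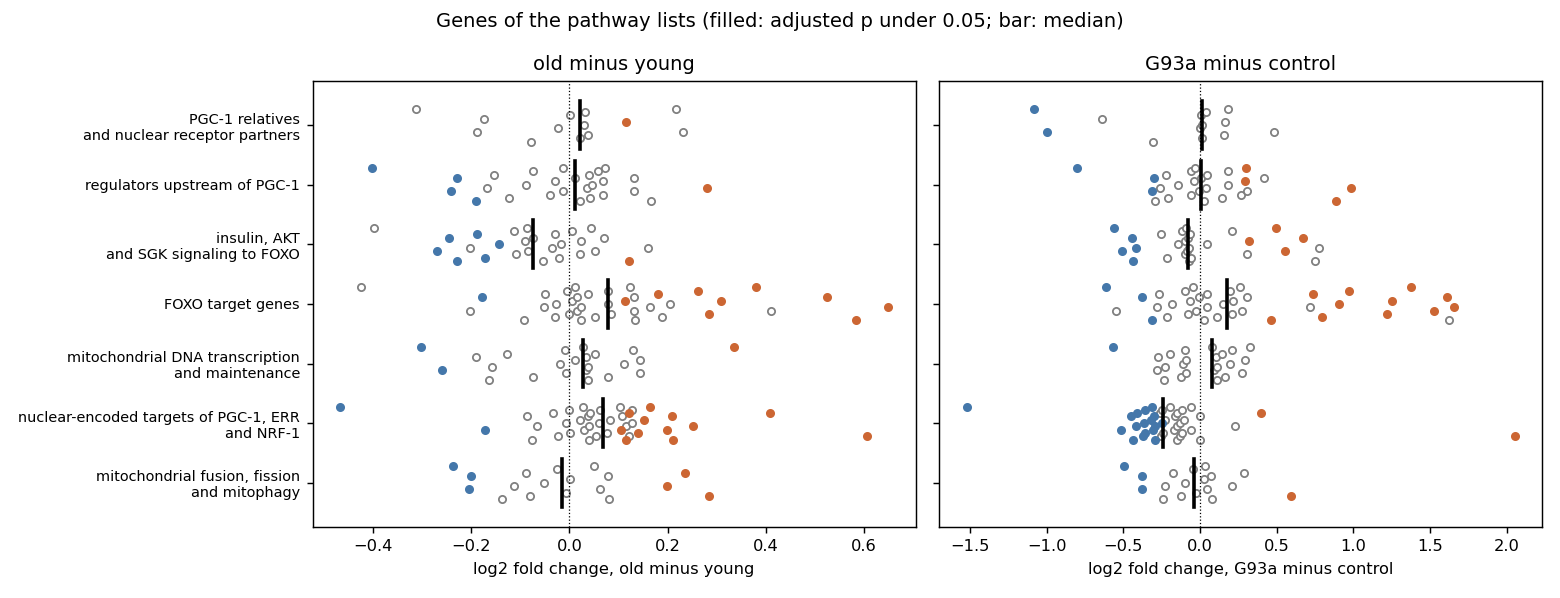
Log2 fold change (horizontal axis) of each tested gene of 7 lists, old minus young (left) and G93a minus control (right), filled where the adjusted p was under 0.05, with a bar at the median of the list. Targets of PGC-1, ERR and NRF-1 lie mostly left of 0 in ALS, at a median of -0.24, and FOXO target genes mostly right of it, at a median of 0.17.

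Of 38 FOXO target genes 11 were higher and 3 lower in G93a mice (median 0.17), and 9 were higher and 1 lower in old mice (median 0.08). The shares called, 36.8% and 26.3%, were near those of all genes, 33.9% and 26.4%. The cyclins Ccnd1 and Ccnd2, which FOXO proteins repress, rose in both comparisons, Ccnd1 from 45.4–57.2 to 130–180 CPM in G93a mice (1.66, adjusted p = 0.000176, edgeR) and from 47.6–55.6 to 57.4–88.2 CPM in old mice (0.53, adjusted p = 6.54e-06, edgeR). Ccnd2 changed by 1.37 and 0.38. Genes that FOXO proteins activate were among them too, namely the DNA damage gene Gadd45a at 1.22 and the proapoptotic gene Bbc3 at 1.61 in ALS, the mitophagy kinase Pink1 at 0.28 and the autophagy gene Gabarapl1 at 0.18 in old mice, and the thioredoxin inhibitor Txnip at 1.53 and 0.58. The 3 lower genes in ALS, named after their values were seen, are also ones that FOXO proteins activate, namely the mitochondrial superoxide dismutase Sod2 at -0.61, the autophagy kinase Ulk1 at -0.32 and the mitophagy receptor Bnip3 at -0.38, and the lower gene in old mice was the sestrin Sesn3 at -0.18. The difference between the comparisons was called for 8 targets higher and 5 lower in ALS relative to aging, where 25.8% of all genes were called, and the 5 were Sod2, Bnip3, Ulk1, Gabarapl1 and Pink1. Without d4437, where 45.6% of all genes were called, the ALS count was 17 higher and 5 lower, and with correction for length and GC content, where 20.5% were, the aging count was 6 higher and none lower.

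Of 27 regulators upstream of PGC-1, 4 were higher and 3 lower in G93a mice, and 1 was higher and 4 lower in old mice. The shares called, 25.9% and 18.5%, lie below the 33.9% and 26.4% of all genes. Without d4437 (45.6% of all genes) the ALS count was 7 higher and 4 lower, and with correction for length and GC content (20.5% of all genes) the aging count was 2 higher and 2 lower, with Camk4 and Ncoa1 still called lower. Camk4, a calcium-dependent kinase that induces Ppargc1a, was lower in both, from 38.0–44.9 to 17.6–31.9 CPM in ALS (-0.80, adjusted p = 0.0147, edgeR) and from 32.2–43.9 to 23.7–32.2 CPM in aging (-0.40, adjusted p = 0.000235, edgeR). The CREB coactivator Crtc1 was at -0.30 in ALS, where the transcription factor Mef2c at 0.88, the retinoblastoma gene Rb1 at 0.98 and the PGC-1 repressor Mybbp1a at 0.30 were higher. In old mice the nuclear receptor cofactors Ncoa1 at -0.23 and Ncor1 at -0.24 and the CREB-like factor Atf2 at -0.19 were lower, and Prkab1, a subunit of AMPK, was higher at 0.28. Of 27 genes of insulin, AKT and SGK signaling, 4 were higher and 5 lower in ALS (33.3% called), with Pik3cb at -0.44, the mitochondrial deacetylase Sirt3 at -0.42, Mdm2 at 0.55 and Sirt2 at 0.49. In old mice 1 was higher and 6 were lower (25.9% called), led by the PI3-kinase genes Pik3ca at -0.17, Pik3r1 at -0.19 and Pik3cb at -0.23, and after the length and GC correction the count was 2 higher and none lower (20.5% of all genes).

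Of 18 genes of mitochondrial fusion, fission and mitophagy, 1 was higher and 3 lower in ALS, and 3 were higher and 3 lower in aging. The shares called were 22.2% in ALS and 33.3% in aging, beside 33.9% and 26.4% of all genes. With 45.6% of all genes called without d4437, the ALS count was 3 higher and 6 lower, and with 20.5% called after correction for length and GC content the aging count was 1 higher (Pink1) and 1 lower (Dnm1l). The fusion GTPase Opa1 was lower in both, at -0.50 and -0.20, as was the fission GTPase Dnm1l, at -0.38 and -0.24. In ALS the mitophagy receptor Bnip3 was at -0.38 and the protease Oma1, which cleaves OPA1, at 0.59. Phb2, an inner membrane prohibitin, was higher in old mice at 0.23, and the protease Yme1l1 was lower at -0.20.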

How the data were processed

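RNA-seq of 22 spinal cords was analysed. The authors aligned reads with STAR, counted with RSEM on the mm10 genome and Ensembl annotation, and deposited expected counts without normalization for 21995 genes, already whole, so that no rounding was needed. The authors also deposited log2(FPKM + 1), which is scaled by length and library. Columns name a group and a library without a replicate number. Each comparison was filtered with filterByExpr (minimum count 10, total 15), scaled by TMM and tested with the edgeR 4.0.16 quasi-likelihood test in R 4.3.3, and p-values were adjusted by Benjamini-Hochberg over every gene tested. Alternatives were RLE factors, DESeq2 1.42.0, limma 3.58.1 (voom on the whole counts, and log2 FPKM with pseudocounts of 1 and 0.1), other filters, 1 fit of all 22 libraries, libraries left out, and a correction for GC content and length. The tests were also run on simulated data, with values not reported here. In the simulated ALS comparison many small changes were missed, and the share of false calls exceeded the threshold. P-values measure the spread between mice. The 10 regulators and all gene lists were chosen with earlier results of these data known. Named genes are the 10 regulators, Sirt1, Sod1, up to 5 called genes of each list, taken by smallest adjusted p, and the 3 genes most like Ppargc1a, Foxo1, Foxo3 and Tfam, and some that this rule gives are not reported here. Neighbours that share exons and marker genes at 0 were named after their values were seen. Positions are from GENCODE M21 (GRCm38).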

Additional observations from a re-analysis of the deposited data

Results flagged for a closer look

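For 4 of the 10 regulators the change in ALS differed from the change in aging by the interaction test in edgeR. Foxo1 differed by 0.64 on the log2 scale (adjusted p = 0.0218, edgeR), with 2 of 3 G93a libraries above all controls and 8 of 8 old libraries above the young median. Gabpa differed by 0.56 (adjusted p = 0.00468, edgeR), with 3 of 3 G93a libraries above all controls and 7 of 8 old libraries below the young median. Esrra differed by -0.37 (adjusted p = 0.0282, edgeR), with 3 of 3 G93a libraries below all controls. Tfam differed by -0.36 (adjusted p = 0.00882, edgeR), with 2 of 3 G93a libraries below all controls and 7 of 8 old libraries above the young median. Library kit and experiment coincide in this test, the sexes and ages of the mice differ with them, and these cannot be told apart. By Dixon's criterion on CPM, over 20 sets of 8 libraries, the highest library stood apart from the rest of its group in 3. The old library d149034 did so for Ppargc1a, with a gap of 0.554 of the group's range, and for Ppargc1b, with 0.556, and the young library d149012 for Nrf1, with 0.558, where the critical value is 0.526. Chance flags about 1 in 20 such sets, and on the log2 CPM scale the gaps were 0.492, 0.479 and 0.522 and none passed.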

How the results depend on the processing

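Under RLE factors, DESeq2 and both other count filters, the same regulators were called in aging (1), ALS (3) and the difference (4), and limma voom lost only Foxo1, in ALS (2 called) and in the difference (3). With limma on log2(FPKM + 1) or log2(FPKM + 0.1), and with the study's threshold of 1 on the log2 fold change, 0 were called in each, where edgeR gave 3, 5 and 4 at an unadjusted p under 0.05. On both FPKM scales 16.8% of all genes were called in aging. In ALS the FPKM scales called 27% and 26.9%, and for the difference 17.3% and 15.7%. Each cause was not tested. A single fit of all 22 libraries called 5 in ALS, adding Gabpa and Tfam. That fit called 43.3% of all genes in ALS, beside 33.9% in the fit of the ALS libraries alone. With 1 library left out, the count ranged from 1 to 3 in aging, from 0 to 6 in ALS and from 1 to 5 for the difference, while the share of all genes called ranged from 22.7% to 31.9%, from 16.2% (without d4443) to 45.6% (without d4437) and from 16.3% (without d4435) to 33.7% (without d4437). It was 3 without old d149034, and 2 without young d149018 or d149019. In ALS it was 0 without control d4444 or G93a d4443, 1 (Esrra) without d4438, d4441 or d4435, and 6 without d4437. For the difference it was 1 (Gabpa) without d4435. These fits have 1 mouse less in a group of 3, and leaving out aging libraries was chosen after seeing the data.

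No called change reversed its sign. In aging, the uncalled Foxo3 was at 0.011 with the GC and length correction, and Esrra at 0.040 and 0.042 on the FPKM scales. With 1 library left out, Foxo4 ranged from -0.073 to 0.00053, Foxo6 from -0.14 to 0.097 and Esrra from -0.050 to 0.013. In ALS, Nrf1 was at 0.014 on both FPKM scales and at 0.0044 with the correction, and with 1 left out it ranged from -0.13 to 0.061 and Foxo3 from -0.089 to 0.32. For the difference, Nrf1 was at 0.060 and 0.068 on the FPKM scales and 0.0023 with at least 10 counts in every library, and with 1 left out it ranged from -0.091 to 0.098 and Foxo3 from -0.084 to 0.31. No paired analysis was possible because the columns of the tables carry no replicate numbers. Foxo6 and Ppargc1b had the fewest counts of the 10, and the ALS comparison has 3 mice per group; which of these limits weighs more was not tested.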
